A study of Mus musculus with 17 samples.

Results

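The genes described here are 37 type I interferon-stimulated genes, listed by name. The list was chosen with earlier results of these data known. All 37 were present in the bulk count tables, which hold counts for 48397 genes, and 36 of them were among the 28208 genes shared by the single-cell matrices. Mx2 was the one not measured in the single cells.

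Type I interferons bind a receptor on almost every cell. The signal from the receptor's kinases leads to the assembly of ISGF3, a complex that includes Stat2 and Irf9. ISGF3 enters the nucleus and binds a short DNA element, the interferon-stimulated response element (ISRE), before the genes listed here. Their products sense viral nucleic acid (Ifih1, Ddx58, Dhx58, Zbp1), make the 2'-5' oligoadenylates that activate RNase L (Oas3) or bind viral RNA (the Ifit family). Others hinder viruses at various steps (Mx1, Rsad2, Bst2), modify other proteins (Isg15, Herc6) or adjust the signal itself (Irf7, Usp18).

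The study asked about PD-L1, encoded by Cd274, on T cells. In the bulk experiment, T cells labelled as wild-type splenic T cells were stimulated with antibodies to CD3 and CD28. There were 4 groups of 3 libraries, named by their titles: Control (the antibodies alone), Ctrl_Fc (with a control Fc protein at 2.5 ug/ml), PD1_Fc (with PD-1 Fc at 2.5 ug/ml) and PDL1_Fc, for which the protocol gives no Fc dose. The treatment field disagrees with the title in 4 libraries: the 3 PDL1_Fc libraries are given there as PD-1 Fc, and PD1_Fc_3 as PDL1 Fc. No label says whether the 3 libraries of a group came from separate animals or cultures, so the p-values measure the spread between these libraries, which may be technical. In the single-cell experiment, the sorted CD45+ leukocytes came from tumors implanted into the pancreas 3 weeks earlier, in untreated mice, with 1 library per genotype. The genotypes were CD4Cre, PDL1 floxed/WT-CD4Cre (flWT_CD4Cre), PDL1 floxed/floxed-CD4Cre (flfl_CD4Cre), PDL1 floxed/floxed without Cre (flfl) and WT. Cre under the Cd4 promoter is active in developing T cells, so both CD4 and CD8 T cells carry the deletion, and other leukocytes largely do not. With 1 library per genotype no difference between genotypes could be tested, and the intervals given for single-cell values cover counting error only.

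Several libraries did not match their labels or stood apart. Control and PDL1_Fc held 14880455 to 18557390 gene counts with 9 to 11.2% of reads not aligned, and Ctrl_Fc and PD1_Fc held 3473884 to 5006301 with 79.9 to 80.4% not aligned. Of 10 T cell markers, the summed level was 26.4 to 30.8 CPM (gene counts scaled to a total of 1000000 per library) in Control and PDL1_Fc, where Trac had 0 to 2 counts, and 859 to 931 CPM in Ctrl_Fc and PD1_Fc. Of the 10, 2 to 4 were at 0 in each Control or PDL1_Fc library and 1 to 3 in each of the others. Of 9 macrophage markers, the summed level was 23069 to 31551 CPM in Control and PDL1_Fc, with none at 0, and 41.4 to 168 CPM in Ctrl_Fc and PD1_Fc. The Control and PDL1_Fc libraries labelled T cells therefore held macrophage RNA and almost no T cell receptor RNA. Within the other set, Ctrl_Fc_3 and PD1_Fc_1 had 130 and 126 CPM of Lyz2, the lysozyme of myeloid cells, against 28.1 to 37.4 CPM in the other 4. Among the single-cell libraries, the 3 with CD4Cre shared 1405 barcodes in all 3 and 765 in 2 of 3, and 821 to 1498 cells per library that were the low-UMI copy of such a barcode were left out. In flfl and WT 0 cells met that rule, and their matrices list 28692 genes against 31053, so the genotypes without Cre cannot be told apart from this set of libraries. The names of the deposited matrices of flWT_CD4Cre and WT are exchanged relative to the sample titles. The groups here follow the sample labels, so every value given for flWT_CD4Cre or WT is that of the library labelled so, and its genotype is in doubt.

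The promoters of these genes can be read directly. A RefSeq promoter window (GRCm38.p6, 250 bases before to 50 bases after the start) was matched by symbol for 28 of the 37 genes. The ISRE was searched on both strands as GAAA, 2 bases of any kind and GAAA again. It was present in 17 of 28 genes (60.7%), against 3.44% of 32851 windows of the same length. A gene counted when any of its windows matched, while the background counts single windows. The GAS element of interferon gamma responses, searched as TTCNNNGAA, was present in 5 of 28 genes (17.9%), against 8.3% of windows. The 7 windows below belong to the genes that the results turn on, and capitals mark the ISRE matches.

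Ddx60 (chr8:61927837-61928136, plus strand): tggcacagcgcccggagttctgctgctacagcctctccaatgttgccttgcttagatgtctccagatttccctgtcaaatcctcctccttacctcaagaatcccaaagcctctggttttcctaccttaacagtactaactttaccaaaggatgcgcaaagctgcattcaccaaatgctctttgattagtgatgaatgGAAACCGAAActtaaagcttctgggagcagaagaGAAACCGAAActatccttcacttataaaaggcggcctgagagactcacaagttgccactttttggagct
Isg15 (chr4:156200769-156201068, minus strand): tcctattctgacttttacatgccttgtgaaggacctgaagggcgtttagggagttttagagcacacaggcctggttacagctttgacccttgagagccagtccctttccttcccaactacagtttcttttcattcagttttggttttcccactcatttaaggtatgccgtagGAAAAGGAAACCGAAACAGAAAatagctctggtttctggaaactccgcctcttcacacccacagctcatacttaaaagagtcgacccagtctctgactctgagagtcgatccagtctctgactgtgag
Rsad2 (chr12:26456403-26456702, minus strand): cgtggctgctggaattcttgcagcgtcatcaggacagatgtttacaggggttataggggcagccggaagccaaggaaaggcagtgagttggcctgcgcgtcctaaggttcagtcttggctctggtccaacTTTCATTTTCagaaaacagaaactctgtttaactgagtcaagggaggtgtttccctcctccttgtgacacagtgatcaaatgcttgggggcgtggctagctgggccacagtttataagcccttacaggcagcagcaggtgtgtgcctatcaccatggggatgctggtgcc
Bst2 (chr8:71537423-71537722, minus strand): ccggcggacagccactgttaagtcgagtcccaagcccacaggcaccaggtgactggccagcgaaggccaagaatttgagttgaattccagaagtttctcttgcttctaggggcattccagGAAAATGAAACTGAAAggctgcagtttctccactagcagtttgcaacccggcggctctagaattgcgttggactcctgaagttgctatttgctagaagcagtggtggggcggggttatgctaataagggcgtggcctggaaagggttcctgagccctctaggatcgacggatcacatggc
Ifit3 (chr19:34583279-34583578, plus strand): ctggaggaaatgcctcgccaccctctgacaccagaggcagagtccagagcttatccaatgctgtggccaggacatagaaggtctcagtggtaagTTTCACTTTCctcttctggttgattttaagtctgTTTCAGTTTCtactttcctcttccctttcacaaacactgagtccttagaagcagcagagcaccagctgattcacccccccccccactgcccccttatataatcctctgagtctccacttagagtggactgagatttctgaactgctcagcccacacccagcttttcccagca
Ifit3b (chr19:34607707-34608006, plus strand): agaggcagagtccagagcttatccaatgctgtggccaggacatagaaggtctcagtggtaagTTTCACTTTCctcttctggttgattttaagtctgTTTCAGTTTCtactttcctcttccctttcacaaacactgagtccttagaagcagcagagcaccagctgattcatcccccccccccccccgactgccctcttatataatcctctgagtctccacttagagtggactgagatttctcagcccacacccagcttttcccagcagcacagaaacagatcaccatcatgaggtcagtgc
Slfn4 (chr11:83174936-83175235, plus strand): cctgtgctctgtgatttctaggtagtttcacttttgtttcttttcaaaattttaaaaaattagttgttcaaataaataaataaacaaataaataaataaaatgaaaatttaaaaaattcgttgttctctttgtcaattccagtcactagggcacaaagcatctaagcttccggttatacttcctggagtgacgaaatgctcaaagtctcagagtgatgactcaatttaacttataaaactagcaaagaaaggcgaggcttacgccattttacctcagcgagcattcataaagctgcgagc

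Ddx60 holds a pair of separate matches, the first base of each at -53 and -19 from the start. Isg15 holds 3 overlapping matches at -78, -72 and -66. Ifit3 and Ifit3b carry their matches on the reverse strand, at -156 and -122 and at -188 and -154, and Rsad2 carries its single match there at -120. Their transcripts are 97.8% identical over 1700 aligned bases, so counts of these genes may be split between them. Slfn4 has no match in this window.

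PD-1 Fc was compared with control Fc in libraries that held T cell RNA. Ddx60, a helicase that aids RNA sensing, and Mx2, an antiviral GTPase annotated in mouse as a polymorphic pseudogene, were lower in PD1_Fc, and no other of the 37 genes passed the test. With edgeR's quasi-likelihood test and Benjamini-Hochberg adjustment over 14653 genes, 2 of 37 members were called, both lower. Over all genes 0.0478% (7 genes) were called and 0.0409% were called lower. The median log2 change over the members was -0.11, against 0.05 over all genes, with 18 members higher and 19 lower by sign alone. The 3 libraries of each group did not overlap for 8 members, against 11.4% of all genes, and 7 members had an unadjusted p under 0.05, against 5.26%. The 8 included Ifi205, higher on 1, 1 and 4 counts in PD1_Fc against 0 in each Ctrl_Fc library.

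Ddx60 was at 16.98, 15.96 and 14.59 CPM in the Ctrl_Fc libraries and at 5.75, 7.79 and 8.99 CPM in the PD1_Fc libraries. The groups did not overlap, and the log2 change was -1.004 (SE 0.20, edgeR adjusted p = 0.0179). Those levels rest on 59, 62 and 68 counts against 28, 34 and 45. Ddx60 lies on the plus strand at chr8:61928087-62038244 and Mx2 on the plus strand at chr16:97535308-97560900 (GRCm38). Mx2 was at 27.6, 25.7 and 26.4 CPM in Ctrl_Fc and at 18.7, 13.7 and 13.6 CPM in PD1_Fc. Here too the groups did not overlap, with a log2 change of -0.72 (SE 0.16, edgeR adjusted p = 0.0414). Both calls depended on single libraries: leaving out 1 of the 6 libraries took the adjusted p of Ddx60 to between 0.0549 and 0.26, and that of Mx2 to between 0.107 and 0.558 except without PD1_Fc_1, where Mx2 kept its call.

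Of the signalling genes, Irf9, the DNA-binding part of ISGF3, was at 28.5, 30.6 and 28.3 CPM in Ctrl_Fc and 21.2, 23.4 and 19.0 CPM in PD1_Fc. The groups did not overlap, but the change of -0.40 log2 (SE 0.14) did not pass (edgeR adjusted p = 0.851). Stat2, its partner, was at 29.4, 23.7 and 20.8 against 24.9, 16.3 and 22.8 CPM, and the groups overlapped. Irf7, the transcription factor that amplifies the response, was at 5.76, 4.63 and 13.1 CPM in Ctrl_Fc and 15.4, 3.67 and 5.59 CPM in PD1_Fc. Its high libraries were Ctrl_Fc_3 and PD1_Fc_1, the same that were high in Lyz2.

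Of the sensors, Ifih1 (MDA5) was the most abundant member in both groups by CPM, at 41.5, 38.6 and 53.2 CPM in Ctrl_Fc and 34.1, 29.1 and 35.6 CPM in PD1_Fc. The groups did not overlap and the change of -0.38 log2 (SE 0.14) did not pass (edgeR adjusted p = 0.919). Oas3, which makes the 2'-5' oligoadenylates that activate RNase L, was at 7.77, 10.6 and 13.5 against 11.9, 4.35 and 4.59 CPM, with overlap.

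Of the effectors, Mx1, the GTPase next to Mx2 on chromosome 16, was at 15.8, 16.2 and 20.6 CPM in Ctrl_Fc and 9.86, 10.08 and 11.99 CPM in PD1_Fc. The groups did not overlap, and the change of -0.67 log2 (SE 0.19) did not pass in edgeR (adjusted p = 0.386) but did in DESeq2 (adjusted p = 0.0498). Rsad2 (viperin) was at 10.1, 9.52 and 25.3 against 18.1, 7.33 and 8.99 CPM. Bst2 (tetherin) was at 3.74, 4.38 and 20.2 against 22.6, 4.35 and 5.99 CPM. Isg15, the ubiquitin-like modifier, was at 2.30, 3.86 and 15.0 against 10.9, 2.52 and 2.80 CPM. In each of these last 3 genes the high library of each group was Ctrl_Fc_3 or PD1_Fc_1.

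Among the remaining members at 5 CPM or more, Ifi35, a partner of Nmi, was at 12.4, 13.4 and 12.2 CPM in Ctrl_Fc and 8.22, 12.1 and 10.6 CPM in PD1_Fc, without overlap. The gene overlaps Gm11626 on the opposite strand over 16.8% of its exons, so its counts may include that gene. The ADP-ribosyltransferase gene Parp9 was at 7.20, 6.18 and 9.44 against 4.73, 4.58 and 5.79 CPM, without overlap and short of the threshold (log2 -0.55, SE 0.25, edgeR adjusted p = 0.926). Its relative Parp14 was at 10.1, 8.49 and 9.22 against 4.93, 7.56 and 9.59 CPM. Ifi44 was at 5.76, 3.35 and 6.22 against 5.34, 3.67 and 4.59 CPM. The other 22 members were below 5 CPM in both groups.

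**Figure D1:**
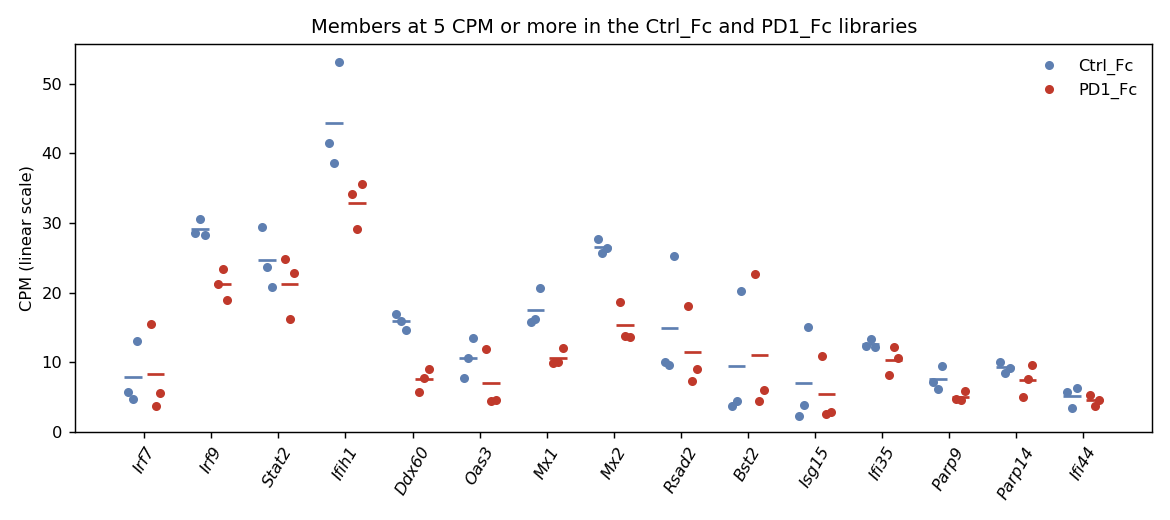
CPM of the 15 members at 5 CPM or more, on a linear axis, in each Ctrl_Fc (blue) and PD1_Fc (red) library; bars are group means, n = 3. Ddx60, Mx2, Mx1, Irf9, Ifih1, Ifi35 and Parp9 do not overlap between the groups, while Irf7, Rsad2, Bst2 and Isg15 each have 1 high library per group.

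The members differed in how far their level in these 6 libraries followed the macrophage marker. Lyz2 stood at 0.131 to 0.608% of its Control mean. Bst2 stood at 0.101 to 0.609% of its own Control mean and Isg15 at 0.106 to 0.691%. In all, 23 members stayed under 10 times the Lyz2 share in every library, and for 20 of these 23 the highest pair of libraries was Ctrl_Fc_3 and PD1_Fc_1. At the other end, Ifih1, Irf9, Ddx60, Mx2 and Parp9 were at least 10 times the Lyz2 share in all 6 libraries, and for none of the 5 was that pair the highest. All 5 were lower in PD1_Fc by sign (log2 -1.004 to -0.38). Of the 23, 7 were lower and 16 higher (median 0.11), and of the 9 between, 7 were lower and 2 higher (median -0.24). The 10-fold line was drawn after the values were seen, and the part of macrophage RNA in the levels of the 23 was not tested. In bulk RNA, fewer cells of a type and less RNA per cell cannot be told apart.

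**Figure D2:**
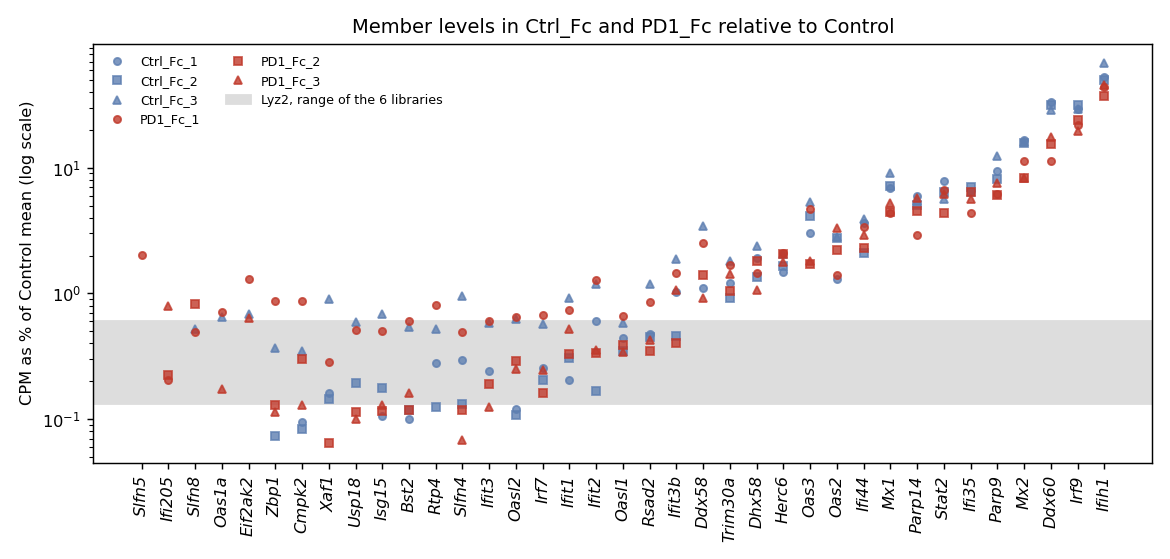
Level of each member in the 6 Ctrl_Fc and PD1_Fc libraries as a percentage of its Control mean (log axis; libraries at 0 are not drawn), ordered by ratio to Lyz2, with the Lyz2 range of 0.131 to 0.608% in grey. Most members lie in or near the grey band, and Ifih1, Irf9, Ddx60 and Mx2 lie far above it.

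PDL1_Fc was compared with Control in the libraries that held macrophage RNA. The members were abundant in both groups, and no difference passed the test. Summed over the 37 genes, Control reached 18412 CPM (SD 345, n = 3), which is 1.84% of its gene counts. PDL1_Fc reached 18751 CPM (SD 124, n = 3), or 1.88%. Per kilobase of exon, Bst2 led in Control at 4113 CPM, followed by Isg15 at 2873 CPM, Irf7 at 602 CPM and Rsad2 at 487 CPM. No member was called by edgeR, and no gene of 14653 was (0.0% of the background). At an unadjusted p under 0.05 there was 1 member of 37, against 3.6% of all genes, and DESeq2 called 0 members. The median log2 change over the members was 0.03, with a range of -0.12 to 0.24, against 0 over all genes.

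The 5 members with the smallest p were Ddx60, Eif2ak2, Irf9, Parp9 and Slfn4. Ddx60 was at 48.1, 55.2 and 49.2 CPM in Control and 49.3, 70.2 and 61.2 CPM in PDL1_Fc (log2 0.24, SE 0.11, edgeR adjusted p = 1). Eif2ak2, the kinase PKR, was at 32.4, 34.8 and 26.9 against 38.2, 31.6 and 37.2 CPM. Irf9 was at 98.4, 100.4 and 92.9 against 92.3, 91.0 and 87.2 CPM, and was the only member of the 37 whose groups did not overlap, against 7.81% of all genes. Parp9 was at 77.2, 81.0 and 70.3 against 67.3, 72.8 and 73.0 CPM. Slfn4, a Schlafen gene of myeloid cells, was at 550.1, 668 and 527 against 642, 708 and 651 CPM.

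The change of Ddx60 between PD1_Fc and Ctrl_Fc differed from its change between PDL1_Fc and Control. The difference was -1.24 log2 (SE 0.23, edgeR adjusted p = 0.0159), the only call among 14653 genes (0.00682%). This contrast crosses the 2 sets of libraries, whose cell content differed.

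Ctrl_Fc against Control compares those sets. All 37 members were lower in Ctrl_Fc, with a median of -7.92 log2, where 91.8% of all genes were called and 47.4% were called lower. The smallest drops were those of Ifih1 (log2 -1.54, SE 0.12) and Ddx60 (log2 -2.43, SE 0.14). Treatment, cell content and sequencing set cannot be told apart in this comparison.

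Few genes of any kind were called in the Fc comparisons, so counts of 0 say little about the pathway around the members. In the PD1_Fc comparison, where 0.0478% of all genes were called, 0 of 10 upstream sensing genes, 0 of 15 other interferon-stimulated genes and 0 of 11 interferon gamma genes were called, and the counts were the same for PDL1_Fc against Control, where 0.0% of all genes were called. Mean Jak1, a kinase of the receptor, was 98.4 CPM for Control and 567 CPM for Ctrl_Fc. Of 8 interferon genes, Ifnb1 alone was tested, at 3.25 CPM in Control and with 0 counts in Ctrl_Fc and PD1_Fc.

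In the tumors the summed level of the members was higher in neutrophil-like, monocyte-like and macrophage-like cells than in T-like or B-like cells of the same library, in all 5 libraries. Single members departed from this: Mx1 was at 16.4, 25.7 and 37.8 CPM in T-like cells of CD4Cre, flWT_CD4Cre and flfl_CD4Cre, above neutrophil-like cells of each, and Ifi35 in WT was at 85.9 CPM in T-like and 35.8 CPM in neutrophil-like cells. Cells were assigned to a class when they had at least 3 of its 6 markers and at least 2 more than of any other class, and are called neutrophil-like, T-like and so on. Per library, 2796 to 4258 cells were kept, and 922 to 1523 of them stayed unassigned. Although the labels name tumor infiltrating T cells, only 58 to 515 cells per library were T-like. Of the 6 classes compared between genotypes (neutrophil, monocyte, macrophage, migratory DC, T and B), neutrophil-like cells led the summed member level in the 3 CD4Cre libraries, at 6737 CPM in CD4Cre (95% Poisson interval 6331 to 7161), 21432 CPM in flWT_CD4Cre (21110 to 21758) and 5929 CPM in flfl_CD4Cre (5619 to 6252). In flfl_CD4Cre that lead rested on few cells, since 2 of 73 held 32.6% of the member UMIs. Without the top 2 cells of each class it was 4092 CPM in neutrophil-like and 4012 CPM in monocyte-like cells, and after thinning to 2000 UMIs the median cell had 3.5 and 6 member UMIs. Monocyte-like cells led these 6 in flfl (2136 CPM) and WT (1282 CPM), where neutrophil-like cells had 1692 and 787 CPM. The few pDC-like cells, at 5084 and 5324 CPM, were above both classes there. Bst2 alone made up 4269 and 4039 CPM of those pDC-like sums, so most of each sum was that gene. B-like cells were at 533 to 1544 CPM and T-like cells at 589 to 2547 CPM. In flfl and WT the neutrophil-like excess over T-like and B-like cells rested on few cells. After thinning, the median cell had 1 member UMI in each of these 3 classes in both libraries. Without the top 2 cells of each class, neutrophil-like cells were at 1166 CPM in flfl and 637 CPM in WT, and T-like cells at 618 and 577 CPM.

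**Figure D3:**
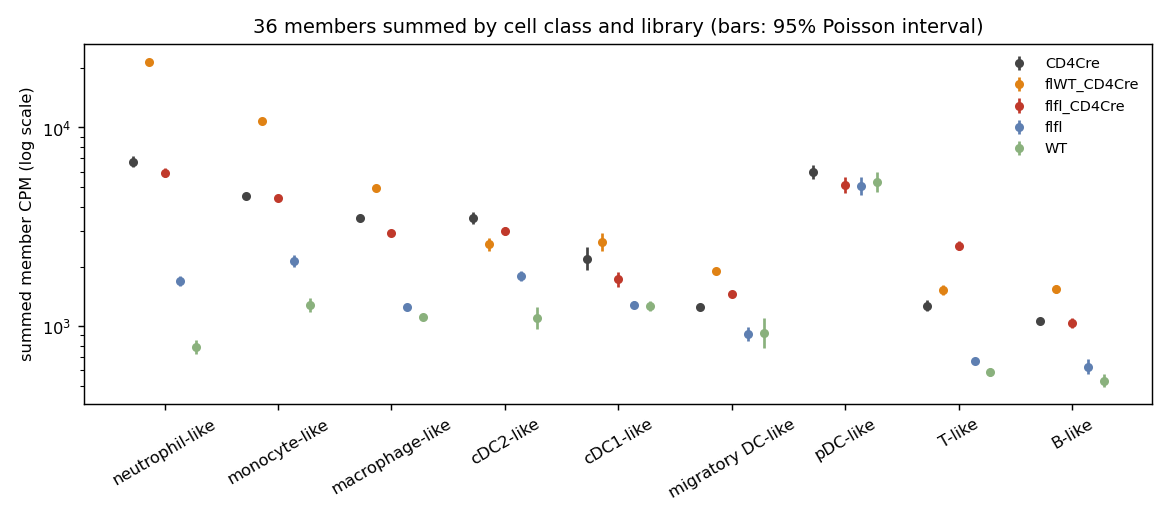
Summed CPM of the 36 measured members (log axis) by cell class, with a point per library and a 95% Poisson interval. The flWT_CD4Cre point is highest in neutrophil-like, monocyte-like, macrophage-like, cDC1-like, migratory DC-like and B-like cells, and not in cDC2-like or T-like cells. In B-like cells that lead is lost without the top cell of each library, and in cDC1-like cells the interval overlaps that of CD4Cre. The pDC-like cells sit between 5084 and 5994 CPM in the 4 libraries where they were counted, of which Bst2 alone is 3568 to 4269 CPM.

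The leading members were partly shared between classes. Bst2 had the highest mean over libraries in macrophage-like (568 CPM), cDC2-like (291 CPM), migratory DC-like (166 CPM), T-like (142 CPM) and B-like cells (101 CPM). The next were Isg15 and Slfn5 in macrophage-like cells, Slfn5 and Isg15 in cDC2-like cells, Isg15 and Herc6 in migratory DC-like cells, and Parp14 and Trim30a in T-like and B-like cells. In monocyte-like cells Isg15 (451 CPM), Slfn5 and Bst2 led. In neutrophil-like cells Rsad2, Isg15 and Slfn4 led, with means over the 5 libraries of 1273, 915 and 723 CPM. In flWT_CD4Cre neutrophil-like cells Rsad2 reached 4433 CPM, against 7.03 CPM in B-like cells of the same library. Of the 36 members, 19 had their highest class mean in neutrophil-like cells and 10 in monocyte-like cells. Those means are drawn up by flWT_CD4Cre: Herc6, one of the 19, was at 473 CPM there, but was lower in neutrophil-like than in migratory DC-like cells in the other 4 libraries (105, 95.3, 15.5 and 4.301 against 111, 131, 46.8 and 70.0 CPM). Ifi44 had no UMI in neutrophil-like cells of any library and Mx1 was at 0 to 6.54 CPM there, although Mx1 reached 198 CPM in monocyte-like cells of flWT_CD4Cre.

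By the ratio of the highest to the next class, the members most restricted to a class were Ifit3b, Bst2, Rsad2, Slfn4 and Ddx60. Fibroblast-like cells were left out of this ranking. The mean of Ifit3b was 12.1 times higher in neutrophil-like than in monocyte-like cells, but its reads are hard to separate from those of Ifit3. That mean is drawn up by flWT_CD4Cre (436 CPM). In flfl_CD4Cre Ifit3b was at 34.7 CPM in neutrophil-like, 35.8 CPM in T-like and 42.4 CPM in fibroblast-like cells. Fibroblast-like cells, counted in 2 libraries, had means of 27.2 CPM for Ifit3b and 49.2 CPM for Ddx60. Bst2, which is also the surface antigen by which mouse plasmacytoid dendritic cells are recognised, was at 3568 to 4269 CPM in pDC-like cells and at 568 CPM on average in macrophage-like cells. Only 9 or 10 pDC-like cells per library stand behind that value. Rsad2, Slfn4 and Ddx60 were 5.14, 5.02 and 4.31 times higher in neutrophil-like cells than in monocyte-like cells. Outside these 5, Ifi205, a DNA-binding PYHIN protein, was highest in cDC1-like cells, at 387 to 531 CPM in every library.

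**Figure D4:**
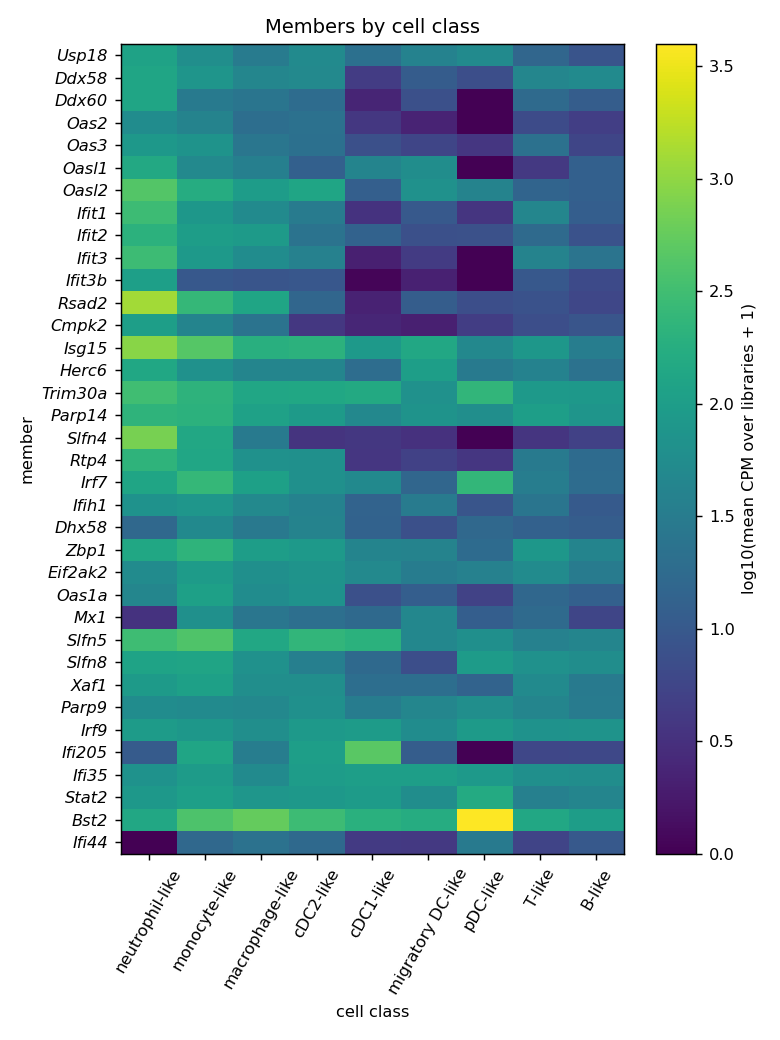
Mean CPM over libraries of the 36 measured members by cell class, as log10(CPM + 1); members are ordered by the class in which they were highest. The block of high values in neutrophil-like cells holds Rsad2, Isg15 and Slfn4, and the single brightest cell is Bst2 in pDC-like cells.

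Deletion of PD-L1 in T cells was compared with CD4Cre by a rule of size: at least 50 CPM in the higher library, at least a 2-fold difference, and Poisson intervals that did not overlap. In monocyte-like, macrophage-like, migratory DC-like and B-like cells 0 members were past the fold in either direction, of 29, 23, 13 and 8 that reached 50 CPM. Over all genes at 50 CPM, 0.932% were higher and 2.13% lower in monocyte-like cells, 1.84% and 0.741% in macrophage-like cells, 0.34% and 0.34% in migratory DC-like cells and 1.52% and 0.38% in B-like cells. In neutrophil-like cells 1 of 30 was, Ifit2 at 264 against 45.8 CPM, where 2.91% of genes were higher and 3.68% lower by the rule. In T-like cells 7 of 18 were higher and 0 lower, where 4.8% of genes were higher and 3.0% lower.

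Those 7 members in T-like cells were Ifit3 (153 against 6.31 CPM), Ifit1 (169 against 12.6 CPM), Isg15 (199 against 65.6 CPM), Rtp4, Bst2, Stat2 and Eif2ak2. The summed level was 2547 CPM in 58 T-like cells of flfl_CD4Cre and 1272 CPM in 104 of CD4Cre. A few cells carried much of this level. Of 1281 member UMIs in flfl_CD4Cre T-like cells, 659 (51.4%) came from 2 cells, against 8.82% in CD4Cre. The first of these had 488 member UMIs and 60523 UMIs in all, against a class median of 6709, and had 3 or more markers of 4 other classes besides its own. Without these 2 cells the level in flfl_CD4Cre was 1434 CPM, and 1188 CPM in CD4Cre without its own top 2. Leaving out every cell with over 4 times the median UMIs of its class, a choice made after seeing the data, left 2 members past the fold, Ifit1 and Stat2. Leaving out the top 2 cells of each library left Stat2 higher and turned Isg15, which was then past the fold as lower in flfl_CD4Cre. After each cell was thinned to 2000 UMIs, the median T-like cell had 3 member UMIs in flfl_CD4Cre, 2 in CD4Cre and 3 in flWT_CD4Cre.

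**Figure D5:**
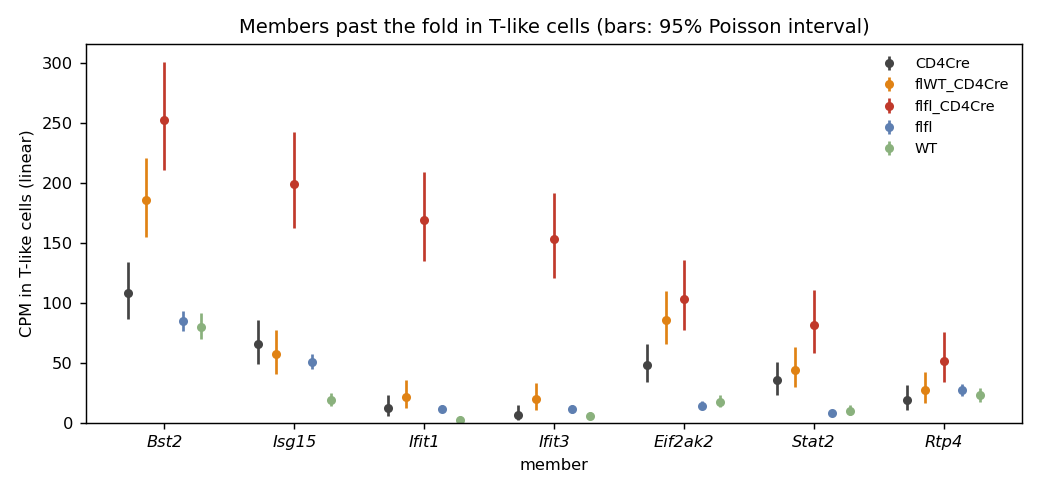
CPM on a linear axis of the 7 members past the fold in T-like cells, with a point per library and a 95% Poisson interval. The flfl_CD4Cre point is highest for all 7 members, and 2 cells hold 51.4% of the member UMIs behind the summed level of that library.

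In neutrophil-like, monocyte-like and macrophage-like cells the summed level was highest in the library labelled flWT_CD4Cre. It was also highest there in cDC1-like (2663 CPM), migratory DC-like (1898 CPM), epithelial-like (1705 CPM) and B-like cells (1544 CPM). In T-like cells it was not, at 1526 CPM against 2547 CPM in flfl_CD4Cre. Nor was it in cDC2-like cells, at 2582 CPM against 3504 CPM in CD4Cre and 3019 CPM in flfl_CD4Cre. The cDC1-like interval of flWT_CD4Cre (2403 to 2944 CPM, 13 cells) overlapped that of CD4Cre (1918 to 2493 CPM, 11 cells). The epithelial-like cells of CD4Cre numbered 5. The B-like lead was lost without the top cell of each library. B-like cells were then at 986 CPM in flWT_CD4Cre, 1049 CPM in CD4Cre and 1036 CPM in flfl_CD4Cre. Against CD4Cre, 21 of 32 members at 50 CPM were past the fold in neutrophil-like cells and 18 of 34 in monocyte-like cells, all higher, where 9.67% and 3.45% of genes were higher by the rule. Macrophage-like cells had 3 of 30 (0.994% of genes) and B-like cells 3 of 13 (2.74%). Migratory DC-like cells had 2 of 13 (2.34%) and T-like cells 0 of 12 (2.3%). The 3 in macrophage-like cells were Oasl1, Ifit3 and Cmpk2, and the 2 in migratory DC-like cells Oasl1 and Oasl2. In neutrophil-like cells Rsad2 was at 4433 against 831 CPM, Isg15 at 2822 against 739 CPM and Slfn4 at 2008 against 824 CPM. The other 18 there were Usp18, Ifih1, Ddx60, Zbp1, Oasl1, Ifit1, Ifit2, Ifit3, Ifit3b, Cmpk2, Bst2, Herc6, Trim30a, Parp14, Slfn5, Slfn8, Xaf1 and Rtp4, from Ifit2 at 702 against 45.8 CPM to Trim30a at 759 against 360 CPM. In monocyte-like cells Isg15 was at 1307 against 368 CPM and Mx1 at 198 against 46.3 CPM. The other 16 there were Irf7, Usp18, Ddx58, Ddx60, Oas1a, Oas3, Oasl1, Ifit1, Ifit2, Ifit3, Rsad2, Cmpk2, Bst2, Ifi35, Slfn4 and Ifi205. The 3 members in B-like cells, Ifit3, Bst2 and Isg15, went with 1 cell of 60432 UMIs that held 695 of 1757 member UMIs, and the summed B-like level without it was 986 CPM, against 1544 CPM with it. Against this same flWT_CD4Cre library, flfl_CD4Cre had 27 of 32 members at 50 CPM lower in neutrophil-like cells (9.37% of genes). It had 21 of 34 lower in monocyte-like cells (5.06%) and 9 of 30 lower in macrophage-like cells (1.53%). In T-like cells 5 of 18 were higher (5.73%), namely Oas3, Ifit1, Ifit3, Isg15 and Slfn5. Those contrasts share flWT_CD4Cre. The T-like contrast rested on the same 2 cells of flfl_CD4Cre as that against CD4Cre. They had 50 and 29 of its 85 Ifit1 UMIs, 69 and 6 of 77 Ifit3 UMIs and 83 and 14 of 100 Isg15 UMIs. Without the top 2 cells of each library the summed T-like level was 1434 CPM in flfl_CD4Cre and 1374 CPM in flWT_CD4Cre.

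The member level was uneven within neutrophil-like cells. After thinning to 2000 UMIs, the 156 cells of flWT_CD4Cre deep enough held a median of 35.5 member UMIs, with a 90th percentile of 140 and a maximum of 241. In CD4Cre 26 such cells had a median of 8, and in flfl_CD4Cre 56 had a median of 3.5 with a maximum of 173. Neutrophil-like cells were shallow, with median UMIs of 2437 to 6501 per library, and 35 to 171 of them were counted.

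Between the libraries labelled as without Cre, the fold rule was applied to members at 50 CPM. In neutrophil-like cells 7 of 10 were higher in flfl than in WT (11.9% of genes higher by the rule). The counts were 3 of 14 in monocyte-like (5.04%), 1 of 7 in macrophage-like (2.23%) and 1 of 4 in T-like cells (0.637%). The macrophage-like and the T-like gene was Isg15 in both, at 147 against 70.9 CPM and at 50.7 against 18.7 CPM. Those in neutrophil-like cells were Oasl2, Ifit1, Ifit3, Rsad2, Bst2, Isg15 and Ifi35, and those in monocyte-like cells Irf7, Oas1a and Ifi205. The neutrophil-like values of flfl rested on few cells, since 2 of 85 held 32.2% of the member UMIs. These 2 cells had 23 and 27 of the 58 Ifit1 UMIs, and 1 of them had 38 of the 46 Ifit3 UMIs. Slfn5 followed the set of libraries: in macrophage-like cells it was at 198 to 284 CPM in the CD4Cre libraries and at 8.06 and 8.62 CPM in flfl and WT, and in T-like cells at 39.9 to 83.5 CPM and at 3.08 and 2.62 CPM.

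Transcripts of the interferons themselves were rare. Over all kept cells there were 443 UMIs of Ifnb1 and 469 of all 8 listed interferon genes. Macrophage-like cells held 380 of these 469. Scaled to their depth, Ifnb1 there was at 18.8 CPM in flWT_CD4Cre (203 UMIs), 10.5 CPM in CD4Cre (77 UMIs), 4.68 CPM in flfl_CD4Cre (85 UMIs), 0.419 CPM in flfl (4 UMIs) and 0.438 CPM in WT (6 UMIs). Cd274 in T-like cells, the gene deleted, was at 53.0 CPM in CD4Cre (42 UMIs), 35.7 CPM in flWT_CD4Cre (25 UMIs), 37.8 CPM in flfl_CD4Cre (19 UMIs), 7.39 CPM in flfl and 7.12 CPM in WT. Reads outside the floxed part would still be counted, so this level does not check the deletion.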

How the data were processed

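The bulk files are raw read counts per gene, deposited by the authors, and the single-cell files are UMI counts per gene and cell, deposited by the authors. STAR, HTSeq, Cell Ranger and mm10 are named per the submitters' processing notes without versions or roles. Cell Ranger 3.1.0 is given per the file headers of 3 of 5 matrices, and no version is given in the other headers. Strand handling is not given in the sources used here. Rows that name no gene were left out of library sizes and made up 42.6 to 44.4% of counts in Control and PDL1_Fc and 87.9 to 88.2% in Ctrl_Fc and PD1_Fc.

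Bulk counts were fitted over all 12 libraries with edgeR 4.0.16 (TMM, filterByExpr, robust quasi-likelihood test) in R 4.3.3, with a threshold of 0.05 after Benjamini-Hochberg adjustment over all genes tested. All 37 members passed the filter. CPM are gene counts scaled to 1000000 per library. DESeq2 1.42.0, other filters, a replicate block and omission of libraries were alternatives. The fit and the fold rule were tested on simulated data.

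A minimum of 200 genes and a maximum of 10% mitochondrial UMIs were required of a cell, Scrublet's highest scores (0.8% per 1000 cells, scanpy 1.11.5) were removed, and a cell was left out when its barcode held at least 4 times as many UMIs in another library. The barcode rule was chosen after seeing the data. UMIs were summed per class and library, with exact Poisson intervals at 95%.

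Coordinates and gene models are from GENCODE M21 (GRCm38), a copy that may not be the authors' annotation. Groups follow the library titles. Members, lists and tests were chosen with earlier results of these data known. Every member is accounted for. Per-library bulk values are given for members that passed, for members at 5 CPM or more in Ctrl_Fc or PD1_Fc and for the 5 with the smallest p in PDL1_Fc against Control. In single cells the rule names the 3 highest members of a class, the members past the fold and the 5 most restricted to a class. The text gives the first for 7 classes and the second for all contrasts but the lower members of flfl_CD4Cre against flWT_CD4Cre, which are given as counts. Other genes were named after their values were seen.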

Additional observations from a re-analysis of the deposited data

Results flagged for a closer look

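Ddx60 differed between the Fc comparisons. Its log2 change between PD1_Fc and Ctrl_Fc minus that between PDL1_Fc and Control was -1.24 (SE 0.23, edgeR adjusted p = 0.0159, 3 libraries a group), tested as a difference of differences. The call held in 8 of the 12 fits that left out 1 library, and over all alternatives the adjusted p ran from 0.00133 to 0.207. Grouped by the treatment field, the sign turned (log2 5.22). The groups crossed here differ in cell content, whose part in the difference was not tested.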

How the results depend on the processing

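Leaving out 1 library at a time gave 0 to 1 members called between PD1_Fc and Ctrl_Fc, and a median log2 change over the members of -0.44 (without PD1_Fc_1) to 0.51 (without Ctrl_Fc_3) (adjusted p over these fits: 0.0549 to 0.26 for Ddx60, 0.0151 to 0.558 for Mx2). The signs that turned in these fits were those of Irf7 (log2 -0.78 to 0.82), Bst2 (-0.94 to 1.58), Rsad2 (-0.91 to 0.37), Isg15 (-1.50 to 0.93), Ifi44 (-0.36 to 0.15) and Stat2 (-0.28 to 0.074). Without both Ctrl_Fc_3 and PD1_Fc_1, 1 member was called, Irf7 was at -0.060 and the difference of differences gave 0 calls. Leaving out 1 library gave 0 to 2 calls for that difference and DESeq2 gave 2. Without the 4 libraries whose fields disagree 1 member was called.

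Grouping by the treatment field mixes the sets of libraries. PD1_Fc against Ctrl_Fc then gave 0 calls, a median log2 change of 7.26, and changes of 1.79 for Irf9, 3.98 for Stat2, 1.05 for Ifih1, 2.02 for Ddx60, 4.59 for Oas3, 3.76 for Mx1, 2.72 for Mx2, 7.08 for Rsad2, 8.27 for Isg15, 3.95 for Ifi35, 3.27 for Parp9, 4.32 for Parp14 and 5.02 for Ifi44. PDL1_Fc against Control gave a median of -7.88, with Ddx60 at -3.20, Eif2ak2 at -7.88 and Slfn4 at -11.15, and the difference of differences called 37 members.

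With the replicate number as a block, 2 members were called between PD1_Fc and Ctrl_Fc and 0 between PDL1_Fc and Control, as without it. The numbers did not pair the libraries, since correlations of same-numbered libraries ran from -0.114 to 0.05.

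In single cells, values are the log2 ratio of summed member CPM of flfl_CD4Cre to CD4Cre and the members past the fold. The member counts are given here without direction and without the share over all genes under the same setting. They can therefore not be set against a background. A gate of 2 markers and a lead of 1 gave -0.32 in monocyte-like, -0.22 in macrophage-like, 0.088 in migratory DC-like, 0.63 in T-like and 0.13 in B-like cells, with 2 members in T-like and 0 in neutrophil-like cells. A gate of 4 markers and a lead of 3 gave -0.79 in neutrophil-like (4 members), -0.56 in monocyte-like (6 members), -0.072 in macrophage-like and 0.63 in T-like cells. Neutrophil-like cells had 2 members past the fold without doublet removal, with 500 genes and 5% mitochondrial UMIs, with the reduced CPM denominator and when thinned to 2000 UMIs. Macrophage-like cells were at -0.30 with 500 genes and 5%, and the mean B-like level was 1512 CPM with the reduced denominator. Thinning gave -0.12 in monocyte-like, -0.14 in macrophage-like, 0.50 in migratory DC-like (1 member) and 0.68 in T-like cells (1 member). Leaving out cells over 4 times the class median UMIs, added after seeing the data, gave -0.49 in neutrophil-like (3 members) and 0.44 in T-like cells (2 members). The cause of these shifts was not tested. Few cells per class limit all single-cell values.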
